A study of Mus musculus with 12 samples.

Results

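Gigyf2 and 3 genes that work with it in translational repression were followed through hippocampal RNA of 5xFAD and wild-type (WT) mice. The 4 genes, Gigyf2, Gigyf1, Eif4e2 and Zfp598, were chosen by name from the 24318 genes of one deposited table. The 7 back-splice junctions assigned to them were all those carrying one of the names among 7025 junctions of the other table. Of these junctions, 6 belonged to Gigyf2 and 1 to Gigyf1, and 0 junctions were listed for Eif4e2 and Zfp598.

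Gigyf2 and Gigyf1 encode GYF-domain proteins that bind proline-rich stretches of their partners and carry a motif that holds 4EHP, the product of Eif4e2. 4EHP binds the mRNA cap as the initiation factor eIF4E does but does not recruit the scaffold needed for ribosome loading, so a bound mRNA is not translated. Zfp598 encodes a ubiquitin ligase that senses collided ribosomes, and it can bring the GIGYF proteins and 4EHP to the mRNA on which ribosomes have stalled. A gene can also give rise to circular RNA, when the end of an exon is joined back to the start of the same or an earlier exon. The join is the back-splice junction, and reads across it mark the circle. The study's design text names a knockdown of the Gigyf2 circle in CAD cells, a mouse neuronal line, which is not analysed here.

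All 12 samples were labelled as hippocampus of mice aged 7 months, 6 of them WT and 6 5xFAD. The 5xFAD strain carries human transgenes with familial Alzheimer mutations, driven in neurons by Thy1 regulatory sequence. The title prefixes AT and CG each covered 3 WT and 3 5xFAD samples, and the labels do not spell the prefixes out. The design text names an rRNA-depleted preparation and one with A-tailing and RNase R, an enzyme that removes linear RNA. CG samples had gene levels in FPKM, a count of fragments scaled to gene length and library size. AT samples had junction signal, in which 1 read was worth 0.226 to 0.866. Nothing in the labels says that samples of one group came from separate animals. Each p-value therefore reflects only how far these samples spread, which may be technical, except where sex-linked genes of the CG libraries, given below, differ.

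The AT libraries held 191408 to 695539 recovered junction reads, the fewest in 5xFAD replicate 1, and each library's smallest possible signal differed accordingly. A junction was listed only where it reached a signal of 2.03 in all 3 libraries of WT or of 5xFAD. Every one of the 40 marker genes fixed for 9 cell classes was above 0 in all 6 CG libraries, among them those of excitatory and inhibitory neurons. The CG library labelled 5xFAD replicate 3 held 305 FPKM of Thy1, against 296 to 340 in WT and 1136 and 1172 in the other 5xFAD libraries, which goes against its label. The summed FPKM of 5 microglial markers was 60.1 to 75.0 in WT and 67.7 in that library, against 307 and 288 in the remaining 5xFAD libraries. Choroid plexus markers stood at 2831 FPKM in WT replicate 1, and at 41.5 to 489 in the other 5 libraries. The 4 genes and their ratios are therefore given with and without the library labelled 5xFAD replicate 3. No such check of genotype was made for the AT libraries, whose labels, that of 5xFAD replicate 3 included, are taken as deposited.

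None of the 4 genes differed between 5xFAD and WT by the test over all genes. Gigyf2 was at 22.1, 22.2 and 23.0 FPKM in WT and at 20.0, 20.7 and 23.3 FPKM in 5xFAD. The library with the highest 5xFAD value was the one labelled replicate 3, and it lay just above all 3 WT values, so the groups overlapped. The log2 difference of Gigyf2 was -0.07 (SE 0.09), with a 95% interval from -0.28 to 0.13 (limma adjusted p = 1.00). Without the library labelled 5xFAD replicate 3 it was -0.13 (SE 0.10, interval -0.38 to 0.11, limma adjusted p = 0.998), and without 5xFAD replicate 1 it was -0.03. All differences of FPKM and signal are on a log2 scale after adding 1 to each value, and intervals are for 1 feature at a time. The RNA came from whole tissue, in which fewer cells of a type and less RNA per cell cannot be told apart.

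Gigyf1, the paralog of Gigyf2, was at 14.0, 11.4 and 11.9 FPKM in WT and at 15.2, 11.6 and 12.1 FPKM in 5xFAD. In both genotypes replicate 1 was the high library and the other values lay within 1 FPKM of each other. Its log2 difference was 0.06 (SE 0.13, interval -0.24 to 0.35, limma adjusted p = 1.00), and 0.10 without the library labelled 5xFAD replicate 3. Leaving out each library in turn gave -0.05 to 0.14, the negative value without 5xFAD replicate 1. Eif4e2, the cap-binding partner, was at 14.2, 17.9 and 15.2 FPKM in WT and at 12.5, 14.9 and 14.6 FPKM in 5xFAD. The 5xFAD values overlapped the WT values from below, with replicate 1 lowest in both groups. The log2 difference of Eif4e2 was -0.16 (SE 0.12, interval -0.43 to 0.11, limma adjusted p = 1.00), and -0.19 without the library labelled 5xFAD replicate 3. It was -0.07 without WT replicate 2 and -0.08 without 5xFAD replicate 1. Zfp598, the collision sensor, was at 10.8, 10.5 and 9.57 FPKM in WT and at 11.6, 9.15 and 10.2 FPKM in 5xFAD. WT and 5xFAD means were 10.3 ± 0.640 and 10.3 ± 1.25 FPKM (SD, n = 3 each), and the log2 difference was 0.00 with an SE of 0.11 and an interval from -0.26 to 0.26 (limma adjusted p = 1.00). Without the library labelled 5xFAD replicate 3 it was 0.01 (SE 0.14, interval -0.32 to 0.33).

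Over all 14500 genes tested in the 6 libraries, limma called 1 gene, Malat1, or 0.0069%, and 424 (2.92%) had an unadjusted p under 0.05, with 0 of the 4 genes among them. Malat1 was listed at 0 in all 3 5xFAD libraries, and an exact 0 in an FPKM table can be a failed estimate. Without the library labelled 5xFAD replicate 3, 174 of 14527 genes were called, or 1.2%, and 0 of the 4 genes. The WT and 5xFAD values did not overlap for 0 of the 4 genes and for 5.66% of all genes tested.

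**Figure D1:**
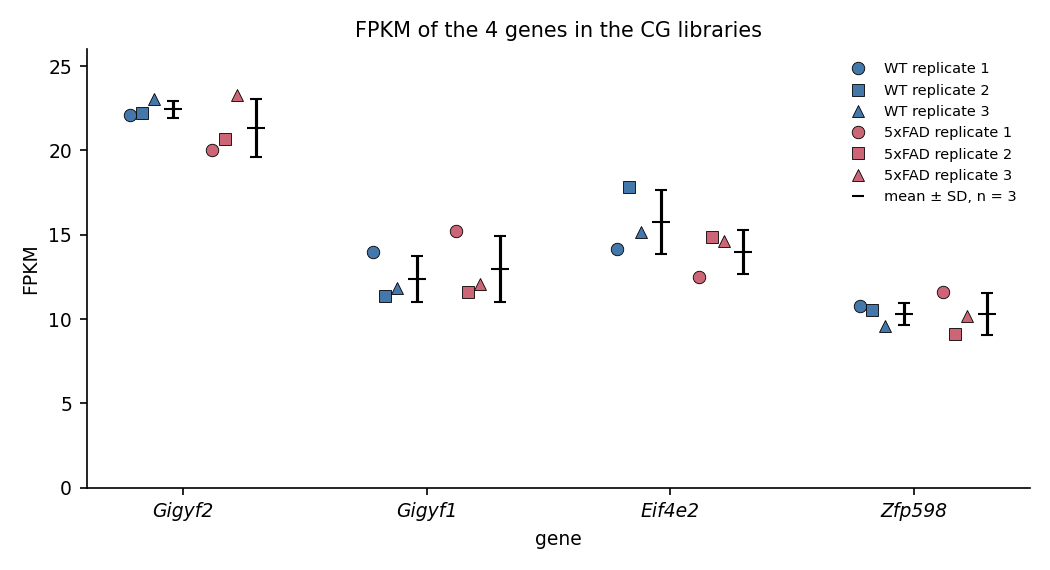
FPKM of Gigyf2, Gigyf1, Eif4e2 and Zfp598 in the 6 CG libraries, with WT in blue, 5xFAD in red, 1 symbol per replicate, and black marks for the mean ± SD of 3 libraries. Gigyf2 lies above the other 3 genes in every library, and for each gene the 5xFAD points overlap the WT points.

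Replicate 1 stood apart in both genotypes. Eif2s3y, a Y-linked gene, was at 28.4 FPKM in WT replicate 1 and 23.6 FPKM in 5xFAD replicate 1 and was listed at 0 in the other 4 libraries, and Xist, the X-inactivation transcript, was at 0.246 and 0.136 FPKM against 99.9 to 112 FPKM. The labels give no sex, but within each genotype these values put replicate 1 and the other CG libraries in different animals. In this replicate of each genotype Gigyf1 and Zfp598 had their highest value, and Gigyf2 and Eif4e2 their lowest. Of all genes tested, 23.6% were highest and 24.6% lowest there in both genotypes, so the members' pattern is given as a description, chosen after the values were seen. Within replicate 1 the 5xFAD minus WT log2 difference was -0.13 for Gigyf2, 0.12 for Gigyf1, -0.17 for Eif4e2 and 0.10 for Zfp598. Within replicates 2 and 3, the library labelled 5xFAD replicate 3 included, it was -0.04, 0.03, -0.15 and -0.05 in the same order. Zfp598 alone thus differed in sign between replicate 1 and these. For Gigyf2 the 5xFAD values were 20.7 FPKM in replicate 2 and 23.3 FPKM in the library labelled replicate 3, against 22.2 and 23.0 FPKM in WT. This contrast was not computed without that library.

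By level, Gigyf2 stood first in each of the 6 libraries, with a lowest value of 20.0 FPKM above the highest of Eif4e2, 17.9 FPKM. Eif4e2, Gigyf1 and Zfp598 followed by mean, at 14.9, 12.7 and 10.3 FPKM over the 6 libraries. Eif4e2 ran from 12.5 to 17.9, Gigyf1 from 11.4 to 15.2 and Zfp598 from 9.15 to 11.6 FPKM. The range of Gigyf1 thus overlapped those of Eif4e2 and Zfp598, while all Eif4e2 values lay above all Zfp598 values. Within each library Gigyf1 was above Zfp598. Each gene's mean was above that of 72.3% to 85.3% of all listed genes. Ratios within a library do not depend on the scaling between libraries. Per FPKM of Gigyf2, WT libraries held 0.702 ± 0.0891 of Eif4e2 and 5xFAD libraries 0.657 ± 0.0542 (SD, n = 3 each, exact permutation p = 0.50, two-sided). For Gigyf1 the WT ratio was 0.553 ± 0.0678 and the 5xFAD ratio 0.614 ± 0.128 (SD, n = 3 each, exact permutation p = 0.50). For Zfp598 the WT ratio was 0.459 ± 0.0384 and the 5xFAD ratio 0.487 ± 0.0811 (SD, n = 3 each, exact permutation p = 0.80). Without the library labelled 5xFAD replicate 3 the 5xFAD ratios were 0.671 ± 0.0680 for Eif4e2, 0.661 ± 0.140 for Gigyf1 and 0.511 ± 0.0976 for Zfp598 (SD, n = 2 each), and each still overlapped the WT values. With 3 libraries against 3 the smallest p this test can give is 0.10. Benjamini-Hochberg adjustment covered 9 such tests, the 3 ratios and the 6 junction shares computed for Gigyf2, and p was 0.45 or higher. The adjustment counted the share of chr1:89230844-89261854, a junction listed through WT alone, from which no p is read.

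In the RefSeq annotation of GRCm38.p6, Eif4e2 and Gigyf2 lie in that order on the plus strand of chromosome 1. The genes between them are the protein-coding Efhd1, a pseudogene and a long non-coding RNA. Only Efhd1, which encodes a calcium-binding mitochondrial protein, had a value in the CG table, at 8.30, 9.61 and 9.84 FPKM in WT and at 8.92, 11.1 and 9.96 FPKM in 5xFAD (log2 difference 0.10, SE 0.11, limma adjusted p = 1.00, and also 0.10 without the library labelled 5xFAD replicate 3). Kcnj13, a potassium channel gene, lies inside Gigyf2 on the opposite strand. Kcnj13 was at 36.8 FPKM in WT replicate 1, the library with the high choroid plexus markers, and at 1.58 to 6.88 FPKM in the other 5. Whether the counting used strand is not stated, so reads of the overlapping pair may not be separable. Gigyf2 was at 22.1 FPKM in WT replicate 1, and the part of Kcnj13 reads in it was not tested.

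The 6 Gigyf2 junctions fell in 2 separate places of the gene and shared ends. Positions are in mm9, on chromosome 1, as deposited, and each junction is named by its span. Because the transcript annotation of that build was not used here, exons and introns are not assigned. A cluster of 4 junctions shared the start at position 89260678. The 15.9-kb junction was chr1:89260678-89276583, and the 16.5-kb junction, chr1:89260678-89277168, ended 585 bases further on. The 10.01-kb junction, chr1:89260678-89270686, and the 1.18-kb junction, chr1:89260678-89261854, lay within the same stretch. The 31.0-kb junction, chr1:89230844-89261854, began 29.8 kb before the shared start and had the same end as the 1.18-kb junction. The 11.9-kb junction, chr1:89313392-89325303, began 52.7 kb after the shared start and shared neither end. Reads from junctions with the shared start made up 99.3% to 99.9% of all Gigyf2 junction reads in each of the 6 libraries.

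**Figure D2:**
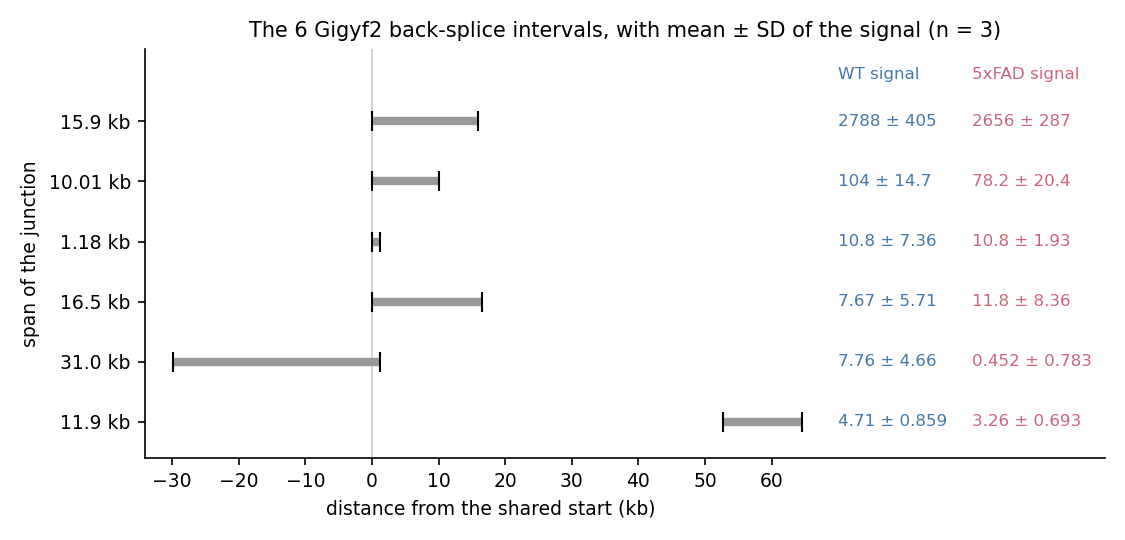
The 6 Gigyf2 back-splice intervals drawn to scale as distance in kb from their shared start, 1 bar per junction and ordered by mean signal, with the mean ± SD of the AT signal printed beside it for WT (blue) and 5xFAD (red), n = 3 each. Of these bars 4 begin at 0, and the 15.9-kb junction holds 2788 ± 405 in WT against 104 ± 14.7 or less for each other junction.

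The 15.9-kb junction of Gigyf2 had the highest mean signal of all 7025 junctions listed. Its signal was 2384, 3194 and 2785 in WT and 2334, 2884 and 2751 in 5xFAD. Replicate 1 was low in both genotypes and the groups overlapped throughout. The group means were 2788 ± 405 and 2656 ± 287 (SD, n = 3 each), a log2 difference of -0.07 (SE 0.24) with an interval from -0.58 to 0.45 (limma adjusted p = 0.990). The direction was reversed, at 0.04 and 0.03, without WT replicate 2 and without 5xFAD replicate 1. The junction held 1.41% to 2.02% of each library's listed junction reads, on 2694 to 14018 reads per library.

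It ranked first in 5 of 6 libraries and second in 5xFAD replicate 1, the shallowest, where a Med13l junction stood at 2625 against 2334. In the other 5 libraries it was 1.41 to 2.81 times the highest junction of any other gene. By mean over the 6 libraries the next junctions belonged to Med13l at 1476, Phf21a at 1225, Ksr2 at 1080 and Dtnb at 1011, against 2722 for Gigyf2. The median junction had a mean signal of 8.32. Gigyf2 was also first of 2947 host genes by summed signal, with a WT mean of 2922 ± 408 and a 5xFAD mean of 2761 ± 280 (SD, n = 3 each). The summed signal had a log2 difference of -0.08 (SE 0.20, interval -0.51 to 0.36, limma adjusted p = 0.998), and its direction was reversed, at 0.02 and 0.01, without WT replicate 2 and without 5xFAD replicate 1. Over host sums limma called 0 of 2947 (0%), with 105 at an unadjusted p under 0.05.

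**Figure D3:**
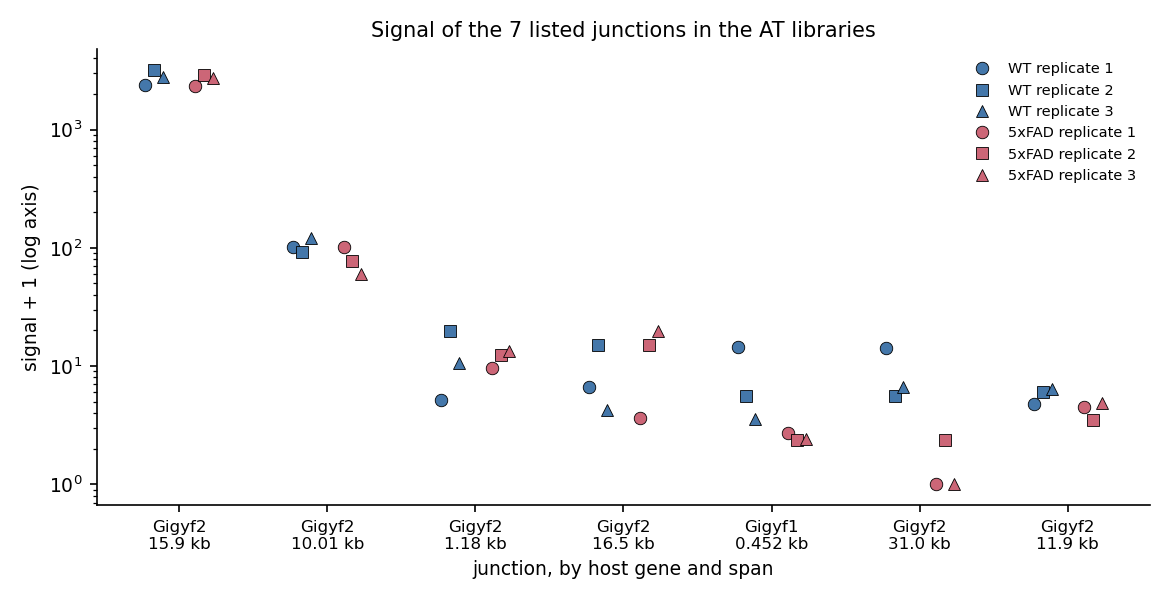
Signal + 1, on a log axis, of the 7 listed junctions of Gigyf2 and Gigyf1 in the 6 AT libraries, with WT in blue, 5xFAD in red and 1 symbol per replicate. The groups overlap for 5 junctions, and for the Gigyf1 junction and the 31.0-kb Gigyf2 junction all 5xFAD points lie below all WT points.

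The 10.01-kb junction was second among the Gigyf2 junctions. Its signal was 101, 90.7 and 120 in WT and 99.6, 75.9 and 59.0 in 5xFAD. The 5xFAD replicate 1 value lay within the WT range and the other 5xFAD values below it. The log2 difference was -0.43 (SE 0.32, interval -1.11 to 0.25, limma adjusted p = 0.918), and it was -0.24 without 5xFAD replicate 3 and -0.62 without 5xFAD replicate 1. The 1.18-kb junction was at 4.12, 18.7 and 9.59 in WT and 8.66, 11.3 and 12.4 in 5xFAD, on 10 to 82 reads per library. Its log2 difference was 0.19 (SE 0.59, limma adjusted p = 0.987), with the WT libraries spread more widely than the 5xFAD ones, and the difference was -0.31 without WT replicate 1 and 0.67 without WT replicate 2. The 16.5-kb junction was at 5.61, 14.1 and 3.27 in WT and 2.60, 14.0 and 18.9 in 5xFAD, on 3 to 79 reads. Values in each genotype ran across the range of the other, with a log2 difference of 0.44 (SE 0.74, limma adjusted p = 0.983) that was -0.04 without 5xFAD replicate 3 and 1.20 without 5xFAD replicate 1.

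The 31.0-kb junction showed the widest gap between genotypes among the 6. Its signal was 13.1, 4.56 and 5.61 in WT and 0, 1.36 and 0 in 5xFAD, without overlap. In reads these were 35, 20 and 24 against 0, 6 and 0, and in 5xFAD replicate 1, the shallowest library, 3 reads would already be a signal of 2.60. The group means were 7.76 ± 4.66 and 0.452 ± 0.783 (SD, n = 3 each), a log2 difference of -2.59. The junction was listed through the WT libraries alone, and so was the Gigyf1 junction. A junction listed in this way had to be under 2.03 in at least 1 5xFAD library, so the listing helped to set the gap, and the values of both junctions are given as a description, with no test. Of all listed junctions, 20.8% were listed through WT alone and 19.5% through 5xFAD alone. In the authors' deposited table the log2 ratio of the 31.0-kb junction was -3.83.

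The 11.9-kb junction, the one away from the others, was at 3.74, 5.01 and 5.38 in WT and 3.46, 2.49 and 3.82 in 5xFAD. The highest 5xFAD value lay just above the lowest WT value, on 4 to 23 reads per library. The log2 difference was -0.43 (SE 0.59, limma adjusted p = 0.968). Gigyf1 had a single junction, chr5:137965189-137965641 in mm9, spanning 452 bases. Its signal was 13.5, 4.56 and 2.57 in WT and 1.73, 1.36 and 1.43 in 5xFAD, on 36, 20 and 11 reads against 2, 6 and 6. All 5xFAD values were lower than all WT values, and WT replicate 1 alone had more signal than the other 5 libraries together. The log2 difference was -1.40, and -0.83 without WT replicate 1.

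Over all 7025 junctions limma called 0 (0%), while 399 junctions (5.68%) had an unadjusted p under 0.05. On the recovered reads edgeR's quasi-likelihood test called 0 and DESeq2 called 1, a Uap1 junction. The authors' deposited table has 264 junctions (3.76%) with an adjusted p under 0.05. None of the 7 junctions of Gigyf2 and Gigyf1 is among them, and nothing is read from this for the 2 listed through WT alone. Among the 7 junctions of Gigyf2 and Gigyf1, 2 had groups that did not overlap with 5xFAD lower. Over all junctions the share was 6.65%, or 11.1% in either direction. Both were listed through WT alone, so nothing is read from that count. The median log2 difference of all junctions was -0.06, and 45.7% were positive.

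Shares within the gene do not depend on library depth in their mean, only in their precision. Of all Gigyf2 reads the 15.9-kb junction held 94.9%, 96.0% and 95.1% in the WT libraries and 95.3%, 96.5% and 96.7% in 5xFAD. Its lowest 5xFAD share lay within the WT range, and the WT mean of 95.3% ± 0.580 and 5xFAD mean of 96.2% ± 0.734 (SD, n = 3 each) were not separated by the exact permutation test (p = 0.20). The 10.01-kb junction held 4.02%, 2.73% and 4.09% in WT and 4.07%, 2.54% and 2.07% in 5xFAD (exact permutation p = 0.30). In 5xFAD replicate 3 its Wilson interval of 1.83% to 2.35% lay below those of all 3 WT libraries, of which the lowest began at 2.47%. In 5xFAD replicate 1 the interval, 3.40% to 4.86%, overlapped those of WT replicates 1 and 3. Such intervals cover counting error only.

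The other 4 junctions each held under 1% of the reads in every library. The 31.0-kb junction held 0.522%, 0.137% and 0.192% in WT. In 5xFAD it held 0 of 2826 reads in replicate 1, which allows a share of up to 0.106%, 0.0454% in replicate 2, and 0 of 11905 reads in replicate 3, which allows up to 0.0252%. All 3 5xFAD values or limits lay below the lowest WT share, although the Wilson interval of WT replicate 2, 0.0887% to 0.211%, overlapped those of 5xFAD replicates 1 and 2. Since the junction was listed through WT alone, these shares too are a description, with no test. The 11.9-kb junction held 0.149% to 0.184% in WT and 0.0832% to 0.141% in 5xFAD, also without overlap (exact permutation p = 0.10, the smallest this design can give), but its Wilson intervals overlapped between the groups. Without overlap were thus 2 of 6 shares, 1 of them of the junction listed through WT alone, and 11.5% of all junction shares tested. The 16.5-kb junction ran from 0.112% to 0.425% in WT and from 0.106% to 0.664% in 5xFAD, and the 1.18-kb junction from 0.164% to 0.562% and from 0.354% to 0.437%. Over the 5238 junctions of hosts with at least 2 junctions limma called 0 (0%), with 338 (6.45%) at an unadjusted p under 0.05.

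**Figure D4:**
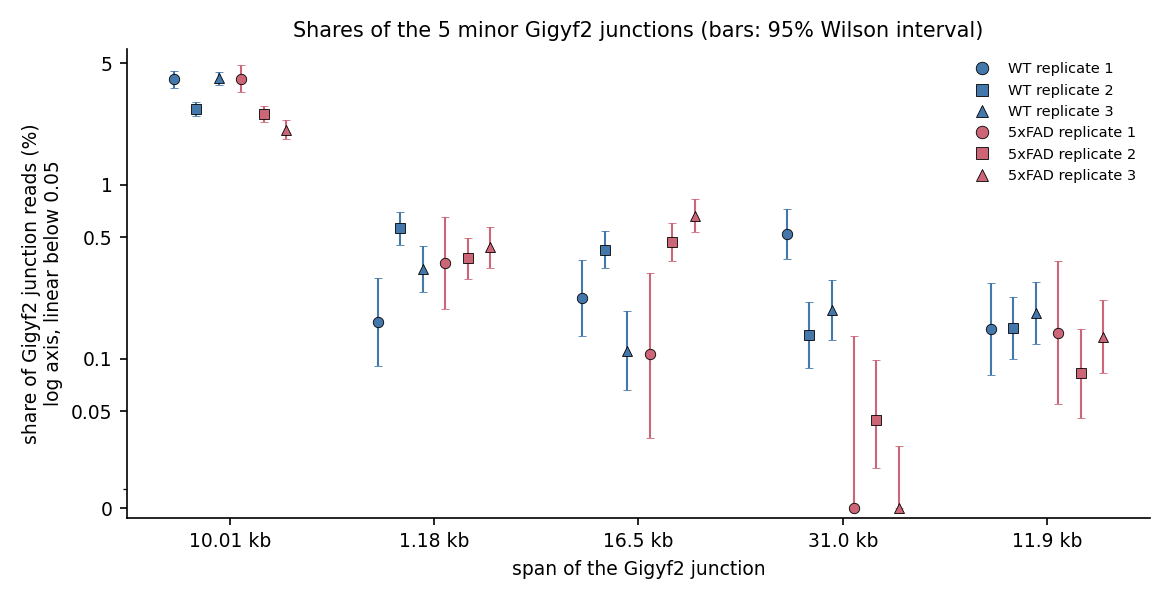
Share of Gigyf2 junction reads, in percent on a log axis that is linear below 0.05, held by the 5 minor junctions in each AT library, with WT in blue, 5xFAD in red, and bars for the 95% Wilson interval. The 31.0-kb junction lies at 0.137% to 0.522% in WT and at 0.0454% or less in 5xFAD, and for the 16.5-kb and 1.18-kb junctions the WT and 5xFAD ranges overlap.

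Most of the Gigyf2 signal sat in 1 junction to a degree that was uncommon among hosts with several. By mean signal the 15.9-kb junction held 95.8% of the host's total. Of 84 hosts with 6 listed junctions, Gigyf2 included, 0 had a higher share in their leading junction, and the median was 43.5%. Of all 1390 hosts with 2 or more junctions, 30 had a higher share, with a median of 59.3%. Set against the gene's own FPKM in the WT CG libraries, Gigyf2 had 130 of WT junction signal per FPKM, first of 2934 hosts with a mean of at least 0.5 FPKM. The median host had 1.08, and Gigyf1 had 0.554, ranking 1960. These ratios join different libraries and units, so only their order can be read.

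The genes most like Gigyf2 in pattern over the 6 CG libraries, by Pearson r of the log2 values among 13385 genes, were Plagl1 (r = 0.995), Bbox1 (0.992), Hdlbp (0.985), Shisa4 (0.984) and Npr3 (0.983). Hdlbp, an RNA-binding KH-domain protein, was at 41.2, 41.6 and 41.7 FPKM in WT and at 38.6, 39.5 and 42.7 FPKM in 5xFAD, the same order of libraries as Gigyf2. With 6 points and a search over all genes, these values are descriptions. Among the partners r with Gigyf2 was 0.51 for Eif4e2, -0.30 for Zfp598 and -0.53 for Gigyf1. For the 15.9-kb junction close patterns among the 7024 compared over the 6 AT libraries were junctions of Wdr70 (r = 0.983), Plekha5 (0.983), Arhgap12 (0.973) and Dennd4a (0.972). These 4 were low in replicate 1 of both genotypes, as the Gigyf2 junction was, and these are the libraries with the fewest reads in each genotype.

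The wider machinery was followed in 4 lists of 60 genes, all of them present in the CG table and tested. The first list held the complex and the factors that recruit or act with it, 13 genes, and limma called 0 of them over the 6 libraries and 0 without the library labelled 5xFAD replicate 3. Its median log2 difference was 0.00 with 5 of 13 positive, against -0.01 with 45.8% positive for all genes. Zfp36, which encodes tristetraprolin, a protein that binds AU-rich mRNA and recruits the complex, had the smallest p. Zfp36 was at 1.92, 2.07 and 1.91 FPKM in WT and at 3.39, 3.59 and 2.11 FPKM in 5xFAD. All 5xFAD values were above the WT values, and 5.66% of all genes tested did not overlap in either direction. The lowest 5xFAD value was that of the library labelled replicate 3, whose microglial markers were at the WT level. Its log2 difference was 0.42 (SE 0.17, limma adjusted p = 1.00), and 0.60 without that library (limma adjusted p = 0.132). The part of microglial RNA in this difference was not tested. Cnot1, the scaffold of the deadenylase complex, differed by -0.04 (SE 0.08), and by -0.07 without that library.

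Among 13 cap-binding and initiation factors limma called 0 in both fits, with 5 positive and a median of 0.00. Eif4ebp1, which encodes a repressor that sequesters eIF4E, was at 1.84, 0.977 and 0.991 FPKM in WT and at 1.91, 3.09 and 1.43 FPKM in 5xFAD, with overlap (log2 difference 0.46, SE 0.23, limma adjusted p = 1.00, and 0.63 without the library labelled 5xFAD replicate 3). Eif4e, the cap-binding initiation factor itself, had a WT mean of 36.1 ± 2.16 FPKM and a 5xFAD mean of 33.7 ± 1.98 FPKM (SD, n = 3 each), a difference of -0.09. Pabpc1, the main poly(A)-binding protein, differed by 0.14 and Eif4ebp3 by -0.16. Without the same library the differences were -0.13 for Eif4e, 0.19 for Pabpc1 and -0.07 for Eif4ebp3. Among 16 genes of ribosome collision sensing and rescue limma called 0 in both fits, with 4 positive and a median of -0.04. Abce1, which splits ribosomes for reuse, was at 28.1, 29.5 and 32.0 FPKM in WT and at 26.6, 27.2 and 27.6 FPKM in 5xFAD, without overlap (log2 difference -0.13, SE 0.08, limma adjusted p = 1.00, and -0.14 without the library labelled 5xFAD replicate 3). Hbs1l, a ribosome rescue GTPase, Tcf25, a cofactor of nascent chain ubiquitination, and Eif2ak4, a kinase activated by stalled ribosomes, differed by -0.10, -0.09 and -0.14. Hbs1l and Tcf25 also showed no overlap, and Eif2ak4 did overlap. These genes are named for the smallest p of their list, and 5.66% of all genes tested did not overlap. Among 18 deadenylation and decapping genes limma called 0 in both fits, with 6 positive, a median of -0.03 and all values between -0.10 and 0.08.

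Of these 60 genes, 28 had listed junctions, 72 in all, and limma called 0 of them. The 19 junctions of the complex list had a median log2 difference of -0.36 with 5 positive, and the 7 junctions of Gigyf2 and Gigyf1 are among them. Of these, the 31.0-kb Gigyf2 junction and the Gigyf1 junction were listed through WT alone, which helped to set their sign. The 18 junctions of cap-binding factors had a median of 0.05 with 9 positive, the 16 of collision factors -0.22 with 6 positive, and the 19 of deadenylation and decapping genes -0.36 with 2 positive, against -0.06 for all junctions. Junctions listed through 1 genotype alone were not left out of these lists, so no shift of a list is read from the medians or counts. After Gigyf2 the hosts with the most summed signal were Eif4e3, a further cap-binding paralog, at 338 ± 68.0 in WT and 338 ± 7.59 in 5xFAD, and Pan3, a deadenylase subunit, at 291 ± 38.9 and 290 ± 46.2 (SD, n = 3 each). Eif4e, with 1 junction, was at 54.6, 80.9 and 25.3 in WT and 32.0, 70.3 and 71.9 in 5xFAD, without a visible separation of the groups. The Cnot1 junction was at 3.74, 9.34 and 7.72 in WT and 2.60, 2.71 and 2.63 in 5xFAD, without overlap (host log2 difference -1.05, SE 0.58, limma adjusted p = 0.998). Over all junctions 11.1% did not overlap in either direction. Eif4e3 and Pan3, and the junctions of Eif4e and Cnot1, are named after their values were seen.

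**Figure D5:**
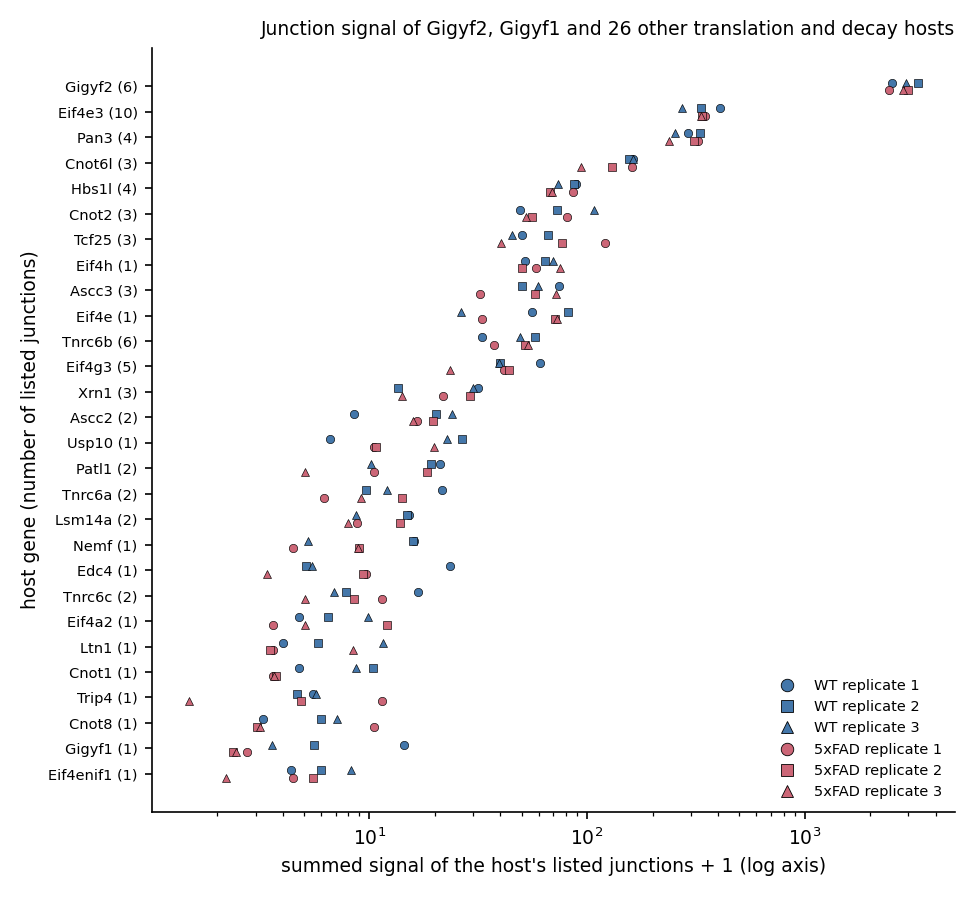
Summed signal + 1, on a log axis, of the listed junctions of the 28 hosts among the 4 genes and the pathway lists, with the number of junctions in brackets, WT in blue, 5xFAD in red and 1 symbol per AT library. Gigyf2 lies at 2448 to 3327 in the 6 libraries, above the next host, Eif4e3, and Gigyf1 lies near the low end.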

How the data were processed

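Per the labels' protocols, RNA was extracted with TRIzol, depleted of rRNA and sequenced in pairs on a HiSeq. Per the submitters' processing notes the build was mm9 and a tool was DESeq, with no version or role; for aligner, junction caller, annotation and strand: not given in the sources used here. FPKM per gene (CG) were deposited, and the authors also deposited a normalized signal per junction (AT), with a log2 ratio and a p-value, raw and adjusted. In each AT library 100% of the deposited signals divided by its smallest step gave whole reads (tolerance 0.01); no library pair agreed within sampling noise (chi-square per degree of freedom 5.85 to 13.6).

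Features with a mean of at least 0.5 were tested by limma 3.58.1 with a mean trend on log2(value + 1), two-sided, with Benjamini-Hochberg adjustment over all features and a threshold of 0.05. Shares were fitted as log2 odds with 0.5 reads added. Exact permutation tests used scipy 1.17.1. Alternatives on reads used edgeR 4.0.16 and DESeq2 1.42.0, in R 4.3.3. The main fits, edgeR, DESeq2 and the share fit with a trend on reads were run on simulated data. At the same threshold limma recovered 69% of 2-fold and 95% of 4-fold changes of genes. For junctions it recovered 2% and 37%, and for host sums 14% and 71%. For shares it recovered 7% of 4-fold and 79% of 16-fold changes. A count of 0 called junctions, sums or shares therefore does not show that none changed by such amounts. The gene changes were planted in genes above 2 FPKM and in all 3 5xFAD libraries. The gene figures therefore do not cover a change missing from the library labelled 5xFAD replicate 3. The microglial marker Cst7, at 49.7 and 42.4 FPKM in 5xFAD replicates 1 and 2 and 0.250 FPKM in that library, was not called over the 6 libraries. Named by rule were the 4 genes, their junctions, Thy1, the genes between Eif4e2 and Gigyf2, up to 4 members per pathway list with the smallest p, and the 5 closest patterns, of which 1 junction is not reported here. The genes, lists and rules were chosen with earlier results of these data known. Replicate numbers were not treated as pairs.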

Additional observations from a re-analysis of the deposited data

How the results depend on the processing

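The 19 values of the genes, junctions, sums and shares were recomputed 221 times, and 0 passed. Nothing is read from this for the 31.0-kb junction, its share, or the Gigyf1 junction and sum. Both junctions were listed through WT alone. Of the 221 recomputed values, 209 kept their direction. The 12 that reversed each left out 1 library. Over those fits the log2 difference ran from -0.055 to 0.14 for Gigyf1, from -0.083 to 0.075 for Zfp598, from -0.036 to 1.20 for the 16.5-kb junction, from -0.17 to 0.038 for the 15.9-kb junction and from -0.31 to 0.67 for the 1.18-kb junction. It ran from -0.18 to 0.021 for the Gigyf2 sum and, as log2 odds, from -0.13 to 0.74 for the 1.18-kb share. Leaving out 1 CG library gave 1 to 174 called genes, the 174 without the library labelled 5xFAD replicate 3. Leaving out 1 AT library gave 0 called junctions, sums and shares. DESeq2 on recovered reads called 1 junction in place of 0, and the cause was not tested. With a pseudocount of 0.1 the 31.0-kb junction differed by -4.85, and with a mean of at least 5 it, the 11.9-kb and the Gigyf1 junction were not tested. A trend on mean reads, added after seeing the data, called 0 shares. Fits with a replicate block called 1 gene, 0 junctions, 0 sums and 0 shares. With the block the SE of the 4 genes was 0.07 to 0.09 in place of 0.09 to 0.13, and their limma adjusted p was 0.917 or higher. Same-numbered libraries correlated in their deviations by 0.04 to 0.42 in CG and 0.04 to 0.09 in AT, and not every library correlated best with its own number, so the numbers were not read as pairs. Depth limits every minor junction, at 0 to 82 reads per library apart from the 10.01-kb one.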
